A study of Vitis vinifera with 3 samples.

Results

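The comparison of mature berries with berries at véraison, the onset of ripening when grape berries soften and colour, was described from every region that the authors listed as differing between these stages on the 19 numbered chromosomes. Such a region is a stretch of DNA whose average cytosine methylation differed between 2 libraries in the authors' own test. There were 33631 of them among the 377997 regions of all pairs of stages, made up of 2497 CG, 7311 CHG and 23823 CHH regions, where H stands for A, C or T. A further 4 entries on organelle sequences were left out. Berries of the grapevine (Vitis vinifera) cultivar Fujiminori were sampled at 40 days after flowering (first growth), 65 days (véraison) and 90 days (maturity), and each stage is 1 whole-genome bisulfite library with no treatment and no replicate. Bisulfite turns unmethylated cytosine into a base read as thymine, so the share of reads that keep cytosine is the methylation level. The labels do not say how many berries or vines went into a DNA sample. DNA came from fruits with no separation of tissues named, so a difference in a cell type's share and a difference within cells cannot be told apart.

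Plants methylate cytosine in all sequence contexts, by different enzymes. CG methylation is copied after DNA replication by the maintenance methyltransferase MET1, and CHG methylation is kept by chromomethylases that bind histone H3 methylated at lysine 9. CHH methylation is placed anew, by RNA-directed DNA methylation near genes and short transposons and by another chromomethylase in heterochromatin. DNA glycosylases of the DEMETER family remove the mark, and in tomato such an enzyme is needed for normal ripening, while orange fruit gains methylation as it ripens. These roles are background from Arabidopsis, tomato and orange, and none was measured here.

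Levels in the tables are whole percents, and a region's difference is always its level at maturity minus its level at véraison. CHH regions were mostly less methylated at maturity, whereas CG and CHG regions went both ways in near equal numbers. Higher at maturity were 31.2% of CHH regions (7425, exact Clopper-Pearson 95% interval 30.6 to 31.8%). In CG the share was 53.1% (1326, 51.1 to 55.1%), and in CHG it was 49.7% (3634, 48.6 to 50.9%). These intervals cover counting over regions only, and neighbouring regions are not independent. No test between stages could be made from single libraries, so every value describes these libraries, and the authors' own p compares reads of 2 libraries rather than stages.

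Gains and losses were of similar size within each context. All regions fit a ratio limit, described below, that treats both directions alike, so this likeness is no separate result. The 1326 higher CG regions went from a median of 14% (quartiles 6 and 22%) to one of 33% (20 and 49%). The 1171 lower CG regions went from 33% (20 and 54%) to 13% (6 and 23%). In both directions, then, the CG level of one library lay near 13% and that of the other near 33%. The CHG medians were 15% at véraison and 37% at maturity in the 3634 higher regions, and 40% and 16% in the 3677 lower ones. In CHH the lower of the levels was smaller than in the other contexts. The 7425 higher CHH regions went from a median of 7% to 30%, and the 16398 lower ones from 31% to 8%. The median difference was 18 and -20 percentage points for higher and lower CG regions, 22 and -23 for CHG, and 21 and -21 for CHH. Large differences were few: 50 percentage points or more separated the libraries in 52 higher and 61 lower CG regions, 158 and 147 CHG regions, and 454 and 766 CHH regions.

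The values show how regions came to be listed, and this bounds what the tables can hold. In every listed region of the 3 contexts the higher level was at least 2 times the lower one once rounding to whole percent was allowed for. As rounded, 29 CG, 54 CHG and 85 CHH regions lay below a ratio of 2, and none did beyond what rounding permits. No source used here states such a ratio rule. Its consequence is that the lower of the levels never exceeded 50%, so heavily methylated DNA could be listed only where it lost much of its methylation. Of the regions above 50% at véraison, 327 in CG, 1316 in CHG and 3641 in CHH, 0 were higher at maturity. Many CG and CHG regions sat close to the limit. Where neither level was 0, the median ratio was 2.21 in CG and 2.30 in CHG but 3.17 in CHH, and it exceeded 5 in 8.58%, 11.2% and 26.0% of regions.

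**Figure D1:**
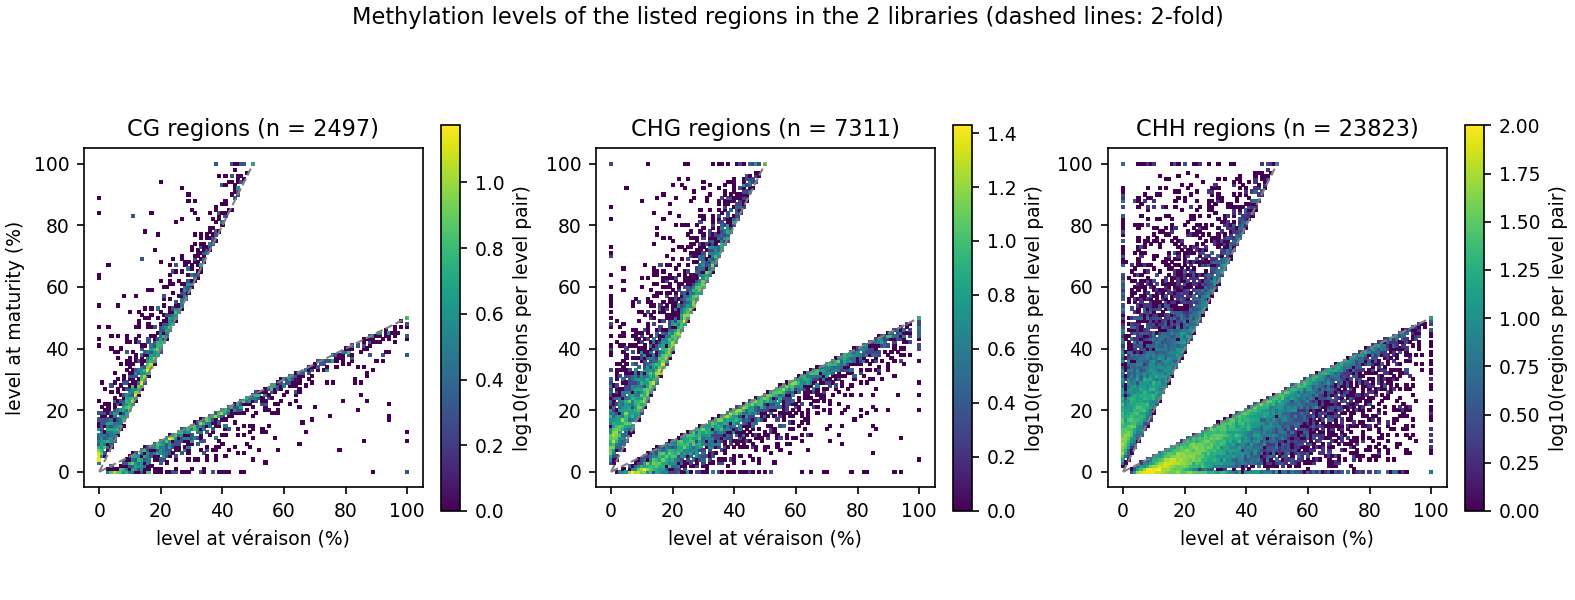
Methylation level at véraison (x axis, %) against maturity (y axis, %) for the listed regions of each context, with colour giving the log10 number of regions at each pair of levels and dashed lines marking a 2-fold ratio. All regions lie on or outside the dashed lines once rounding is allowed for, CG and CHG regions crowd along them, and the CHH panel is densest among regions that were lower at maturity.

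Some regions lay at an end of the scale, more often at 0% than at 100%. A level of 0% in one library was listed for 178 CG, 401 CHG and 2463 CHH regions, or 7.13%, 5.48% and 10.3% of them. A level of 100% was listed for 34 CG, 75 CHG and 102 CHH regions, and 2, 2 and 11 regions went from one end of the scale to the other. The tables analysed give levels without read counts, so the depth behind such a level is unknown.

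Below 50% the ratio limit allows both directions, but a higher start leaves less room for gains and more for losses. The share of regions higher at maturity fell with the starting level at véraison, and this fall by itself is no separate result. Among CHH regions below 10% at véraison, 84.4% of 5177 were higher at maturity. From 10% up to 20% this share was 33.9% of 5090, from 20% up to 40% it was 16.1% of 7552, and from 40% up to 60%, which spans the limit, it was 3.09% of 3719. The CHG shares over the same bins were 89.6%, 65.9%, 52.3% and 12.8%, and the CG shares were 85.6%, 69.9%, 45.1% and 19.5%. At each of these starting levels a smaller share of CHH than of CG or CHG regions was higher at maturity. A sorting that favours neither library takes the level of whichever library was higher. On that scale the share of CHH regions higher at maturity moved little, from 28.8% where the higher level was 40% up to 60% to 35.2% where it was 80% or more. The excess of CHH losses was present in each of these bins. CHG shares ran from 44.6% at 80% or more to 52.4% from 20% up to 40%. CG shares ran from 42.6% at 80% or more (197 regions, interval 35.6 to 49.9%) to 58.9% below 10% (185 regions, 51.5 to 66.1%).

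Region length separated the contexts and also went with direction. Median lengths were 276.5 bp in higher and 257 bp in lower CG regions, 168.5 and 179 bp in CHG, and 54 and 57 bp in CHH, with a shortest region of 41 bp in each context and longest regions of 1130, 1323 and 279 bp. Together the regions covered 0.724 Mb in CG, 1.42 Mb in CHG and 1.47 Mb in CHH. CHH losses were slightly longer than CHH gains. The share of CHH regions higher at maturity was 36.0% in the shortest quartile (41 to 47 bp), 32.6% in the next, 29.8% in the one after and 26.0% in the longest (73 to 279 bp). It was lower in the longest than in the shortest quartile on 19 of 19 chromosomes. CHG regions leaned the same way only in their longest quartile, with 45.5% higher against 51.7% in the shortest, and on 15 of 19 chromosomes. CG regions leaned the other way, with 57.4% of the longest quartile (405 to 1130 bp) and 49.7% of the shortest higher at maturity, and the longest quartile had the lower share on 6 of 19 chromosomes.

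The deposited p moved with length as well. The median p was 0.000339 in the shortest CHH quartile and 1.91e-05 in the longest in the authors' deposited table, and 0.000302 and 3.95e-05 for CG. The median size of the difference grew with length in CHH, from 18 to 25 percentage points, but shrank in CG, from 24 to 16, and in CHG, from 28 to 21.

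**Figure D2:**
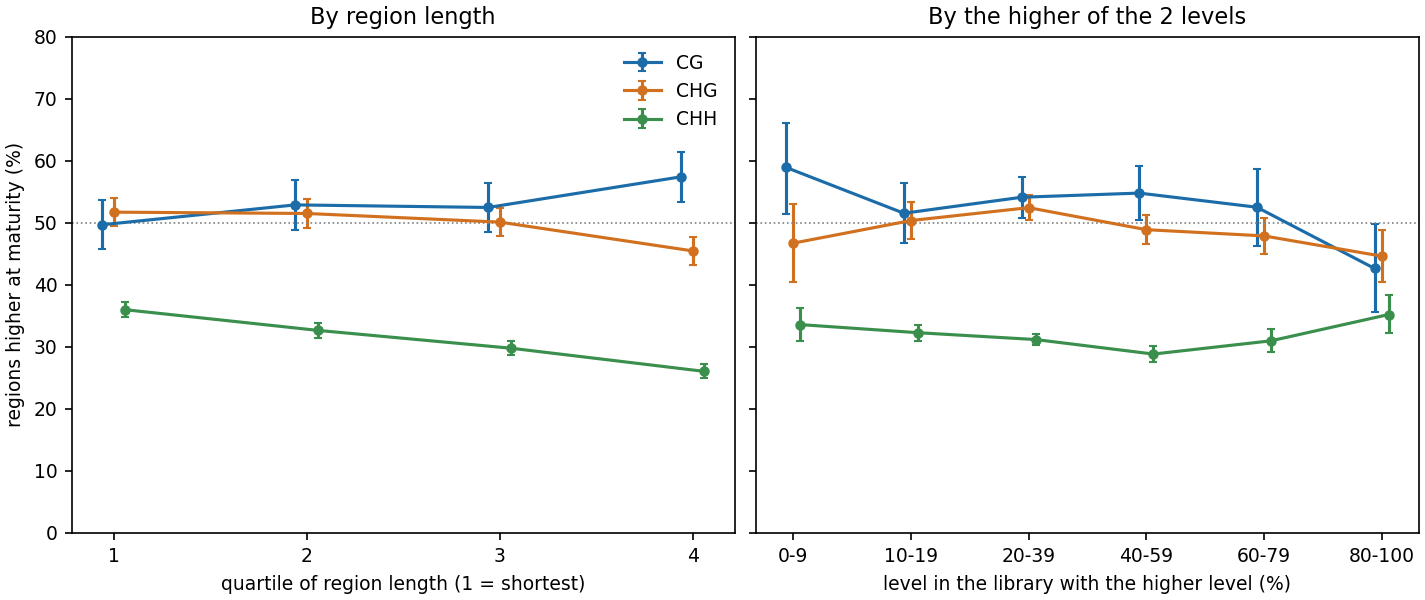
Share of regions higher at maturity (y axis, %, with exact 95% intervals over regions) by quartile of region length (left) and by the level of whichever library was higher (right, %). CHH shares fall from 36.0% to 26.0% with length and stay between 28.8% and 35.2% over the levels, below CG and CHG throughout.

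Along the genome the direction of CHH regions was nearly uniform. Between 28.5% (chromosome 7) and 34.4% (chromosome 10) of CHH regions were higher at maturity, so losses prevailed on all 19 chromosomes. CHG shares ran from 40.6% on chromosome 8 to 57.8% on chromosome 7, and CG shares from 45.4% on chromosome 11 to 65.2% on chromosome 3, where the table held 115 CG regions. On 11 of 19 chromosomes most CG regions were higher, and on 11 most CHG regions were.

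Densities varied more between chromosomes in CG than in CHG or CHH. Taking each chromosome to reach to the last region listed on it in any table, there were 55.9 CHH regions per Mb in all, from 50.6 on chromosome 16 to 66.2 on chromosome 17. CHG regions had 17.2 per Mb, from 14.4 on chromosome 3 to 20.5 on chromosome 13, and CG regions had 5.86 per Mb, from 4.66 on chromosome 19 to 7.83 on chromosome 15. When each chromosome was divided into 5 equal parts, the outer parts held 6.96 and 6.91 CG regions per Mb while the middle part held 4.80. CHH regions had 48.4 per Mb in the middle part and between 54.8 and 60.8 in the others. CHG densities lay between 16.1 and 18.3 in all parts.

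**Figure D3:**
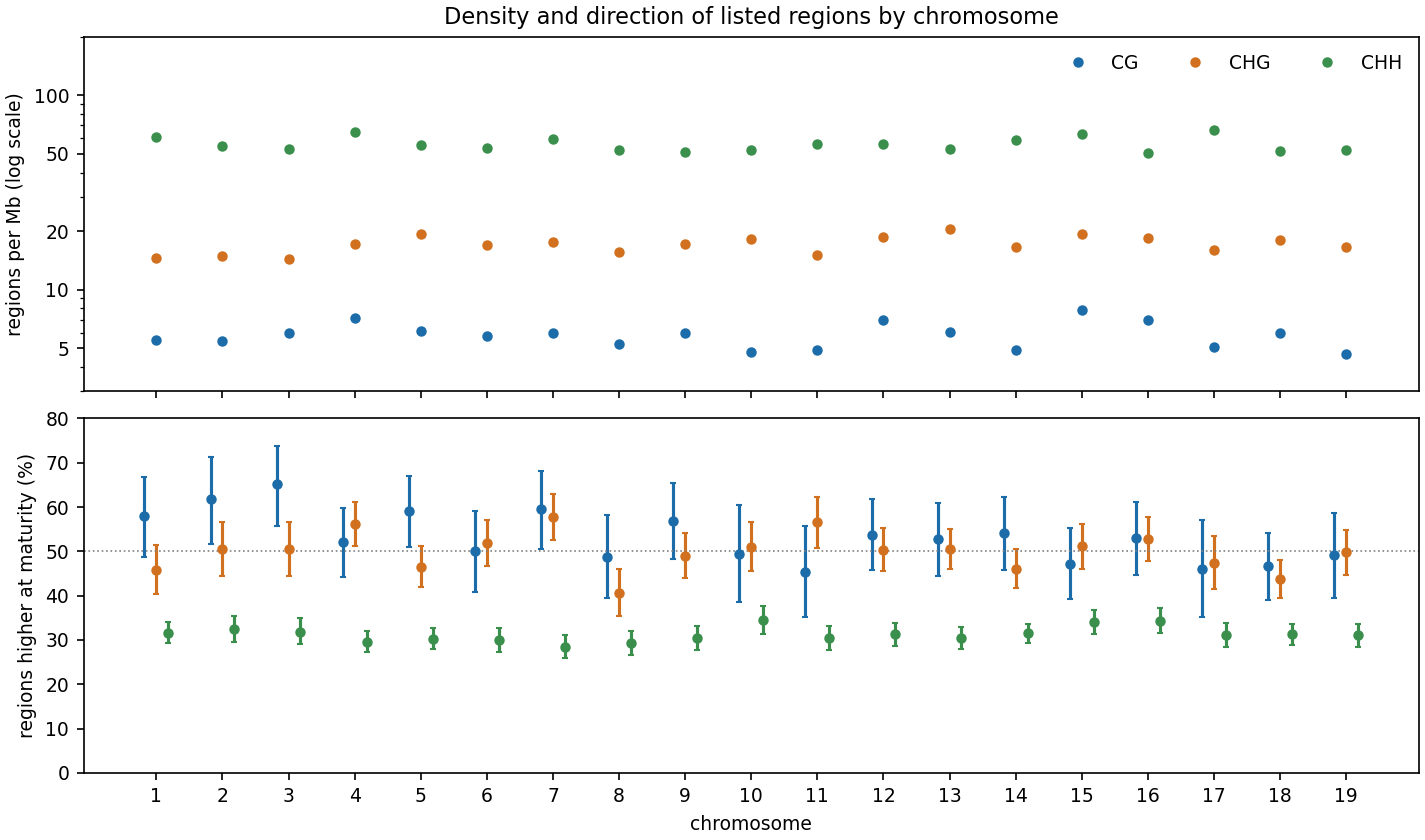
Listed regions per Mb (top, log scale) and share of regions higher at maturity (bottom, %, with exact 95% intervals over regions) on each of the 19 chromosomes. The CHH shares lie between 28.5% and 34.4% on every chromosome, whereas CG and CHG shares lie on both sides of 50%.

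Whether neighbouring regions shared a direction depended on their distance. Some entries of a table overlap one another (331 CG, 1113 CHG and 2721 CHH regions), and overlapping or adjoining neighbours nearly always had the same direction, in 96.5% of 172 CG, 99.5% of 572 CHG and 99.4% of 1426 CHH pairs. Such entries share reads and are not separate evidence. For neighbours apart by less than 1 kb the share was 52.7% of 93 CG pairs, 63.2% of 590 CHG pairs and 64.5% of 3714 CHH pairs. The shares of higher and lower regions alone give 50.2% in CG, 57.1% in CHH and an even split in CHG. At 1 to 10 kb the values were 50.7%, 52.6% and 57.5%, and at 10 to 100 kb they were 49.4%, 52.5% and 56.3%, close to those given by the shares alone. In CHH the likeness belonged to the nearest regions. A direction was shared by 83.2% of 936 pairs less than 100 bp apart, 60.6% of 958 pairs from 100 up to 300 bp apart and 56.8% of 1820 pairs from 300 up to 1000 bp apart. From 300 bp on, CHH neighbours shared a direction about as often as the shares alone give.

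Runs of one direction, with gaps of at most 1 kb, were accordingly short. Overlapping entries count as separate regions of a run, so a run can hold the same reads more than once. Of 20012 CHH runs, 16981 were a single region, and 34 held 5 or more regions. Of those 34 runs, 2 were higher at maturity and the others lower. With most CHH regions lower, the shares alone already make long runs of gains much rarer than long runs of losses, so this count shows no clustering of losses. The longest held 7 regions. One of these lay outside the named gene models on chromosome 16, from 9077331 to 9078613, where CHH levels of 22 to 50% at véraison were 10 to 24% at maturity. Another lay on chromosome 5, from 24516733 to 24517458, with 26 to 90% at véraison and 4 to 39% at maturity. In neither do the levels at véraison and at maturity fully separate as ranges, although each region was lower at maturity than at véraison. The longest run of higher CHH regions held 6 regions on chromosome 5, from 9857839 to 9859291, at 21 to 29% at véraison and 47 to 69% at maturity, and there the ranges were apart. The longest CHG runs held 5 regions, among them one lower at maturity on chromosome 6, from 1592702 to 1593189 within a gene model, where levels of 76 to 94% became 36 to 45%. In CG the longest run held 5 regions, lower at maturity, on chromosome 15 from 12230504 to 12231391, at 38 to 39% at véraison and 19% at maturity throughout.

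The tables name a gene model beside a region and give its start, end and strand, but no exons, introns, untranslated regions or functions. None of the 9490 model identifiers matched the 29591 genes of the RefSeq list used here (assembly ASM3070453v1), so no gene name or role is given. Models were named by where a region ended. All 935 CG, 3443 CHG and 2533 CHH regions with a named model had their end coordinate inside that model, whereas 57 CG, 51 CHG and 13 CHH regions that cross the higher-coordinate edge of a listed model had none named. A region can therefore carry the name of a model that it barely touches. Counting any shared base instead moved the share of regions in models by less than its interval in every context. By the authors' naming, 37.4% of CG, 47.1% of CHG and 10.6% of CHH regions lay in a model.

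CHG regions in gene models of 10 kb or more leaned towards losses, unlike those in shorter models or outside models. In models of all lengths, 45.1% of 3443 CHG regions were higher at maturity (interval 43.4 to 46.8%), compared with 53.8% of 3868 without a model, beside 49.7% of all listed CHG regions. The share in models fell with the length of the model. Higher at maturity were 57.7% of 355 CHG regions in models under 2 kb, 52.1% of 1130 in models from 2 up to 10 kb, 40.3% of 1447 in models from 10 up to 40 kb and 34.2% of 511 in models of 40 kb or more. In models of 10 kb or more the share was 38.7%, and it was below the share outside models on 19 of 19 chromosomes, with 29.1 to 53.0% against 46.0 to 63.7%. Longer models also held longer regions, with medians from 145 to 213 bp. The order was the same for shorter and longer CHG regions, split at the median length. Among shorter regions, 40.2% in models of 10 kb or more and 55.1% in models under 10 kb were higher, and among longer regions 37.7% and 51.7%. The median CHG level was 17% at véraison and 20% at maturity in models from 2 up to 10 kb, but 28% and 21% in models of 40 kb or more.

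The other contexts showed no such gradient. In CHH, the share higher at maturity was 36.3% of 146 regions, 30.7% of 1210, 33.0% of 1052 and 42.4% of 125 over the same classes of model length, and the interval of the last, 33.6 to 51.6%, was wide. In CG it was 52.7% of 264, 56.1% of 490 and 51.4% of 173, and models of 40 kb or more held 8 CG regions. Models with a CG region were shorter, with a median of 3750.5 bp, than models with a CHG (10097.5 bp) or CHH region (8215 bp).

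**Figure D4:**
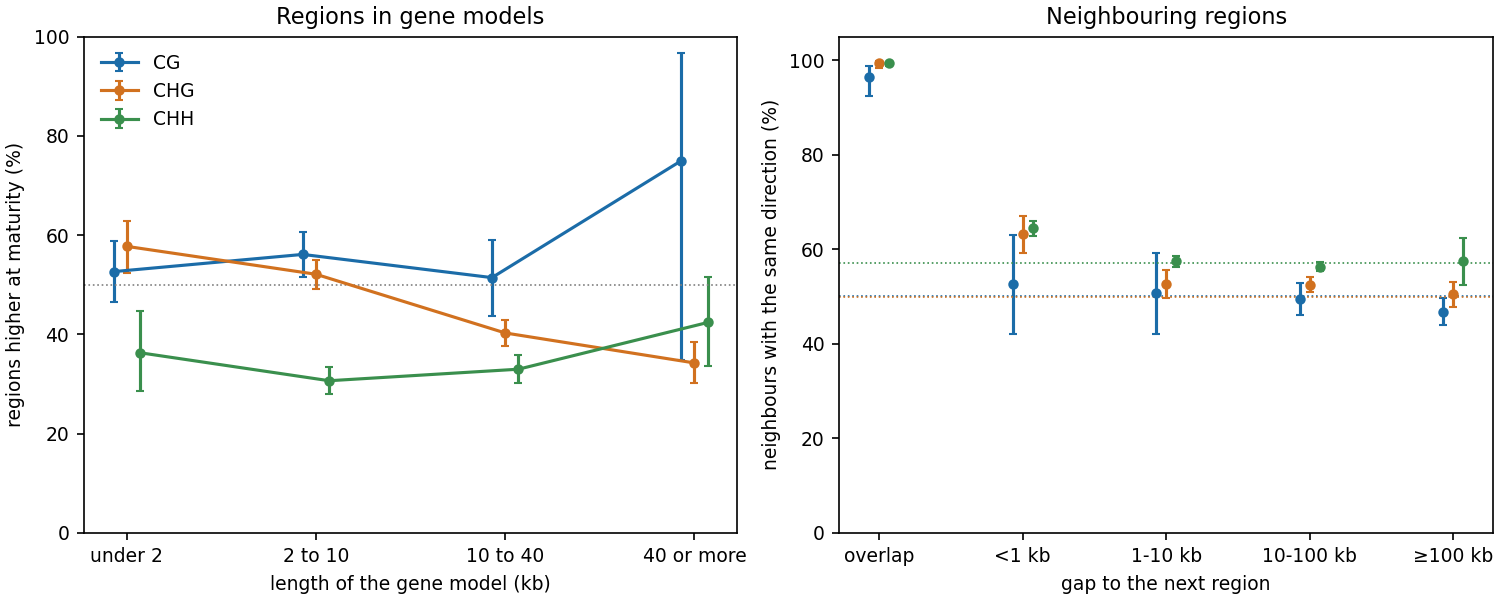
Left, share of regions in gene models that were higher at maturity (y axis, %) by model length (kb). Right, share of neighbouring regions with the same direction (y axis, %) by the gap between them, with dotted lines at the values that the shares of higher and lower regions alone give. Bars are exact 95% intervals over regions. The CHG share falls from 57.7% to 34.2% with model length, and sharing of direction is near the dotted lines beyond 1 kb.

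Around models, CHH losses were found at similar shares everywhere. Higher at maturity were 32.5% of 2533 CHH regions in models, 27.8% of 796 within 1 kb upstream of a listed model, 29.7% of 1828 from 1 to 3 kb upstream, 33.1% of 565 within 1 kb downstream, 30.2% of 1129 from 1 to 3 kb downstream, and 31.3% of 16959 farther away. The intervals of these shares all overlap, although that of the upstream 1 kb (24.7 to 31.0%) barely meets that in models (30.7 to 34.4%). CHH levels were higher in all the flanks than in models. Over both directions, the median within 1 kb upstream was 28% at véraison, then 16%, and in the other flanks it was 25 or 26%, then 15 or 16%, against 19% and 11% in models. Farther than 3 kb from a listed model they were 23% and 14%. Only models named beside a region of some pair of stages are listed. Regions counted here as far from a model may therefore lie near a gene that is not listed. CG regions in the flanks were few, for example 65 within 1 kb downstream, where the interval of the share higher ran from 47.1 to 72.0%.

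Most models with a region held 1 of that context. In the 3 tables together 4296 models were named. Of 832 models with a CG region, 745 had 1, as had 1694 of 2374 for CHG and 1274 of 1770 for CHH. Of the 87 models with more CG regions, 29 had only higher, 31 only lower and 27 mixed regions. Of 680 models with 2 or more CHG regions, 167 were only higher, 243 only lower and 270 mixed. Of 496 such models for CHH, 57 were only higher, 230 only lower and 209 mixed. These counts include overlapping entries, which nearly always share a direction. The counts that the shares of higher and lower regions alone give were not worked out. No common change of a whole model is therefore read from them. The models with the most regions show each pattern. A 14438 bp model on chromosome 12, from 5907654 to 5922091 on the plus strand, held 9 CHH regions, all lower at maturity, with 16 to 62% at véraison and 2 to 31% at maturity. A 34487 bp model on chromosome 14, from 5431652 to 5466138, also held 9, of which 5 were higher and the others lower, with differences from -47 to 45 percentage points. For CHG, a 50265 bp model on chromosome 16, from 15763134 to 15813398, held 8 regions of which 1 was higher, while a 57938 bp model on chromosome 6, from 9155503 to 9213440, held 8 of which 6 were higher.

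Where CG and CHG regions overlapped, they differed in the same direction and by nearly the same amount. There were 531 overlapping pairs, which took in 18.5% of CG and 6.39% of CHG regions. In 311 pairs both were higher, in 214 both were lower, and 6 were opposed. Pairs that were higher had median CG levels of 17%, then 39% at maturity, and CHG levels of 13% and 35%, and pairs that were lower had 44.5% and 18.5% in CG and 35.5% and 12% in CHG. The CG and CHG differences were within 5 percentage points of each other in 71.2% of pairs. Across pairs their Pearson correlation was 0.96 and their Spearman correlation 0.94, given as a description, since the pairs come from the same reads of the same libraries and include overlapping entries. Of the 6 opposed pairs, one lay on chromosome 10, where CG from 15837684 to 15837767 went from 58% to 28% and CHG from 15837742 to 15837865 from 20% to 45%.

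Overlaps of CHH regions with those of the other contexts were few in number. CHH regions are short, and the overlap that lengths and numbers of regions alone give was not worked out. The counts are therefore not read as CHH regions avoiding the others. The 73 pairs with CG involved 2.60% of CG and 0.294% of CHH regions. In 59 of them (80.8%, interval 69.9 to 89.1%) the direction was the same, and 38 of these were lower in both. The differences were within 5 percentage points in 27.4% of pairs (Pearson correlation 0.38, Spearman 0.44, over pairs as above). The 103 pairs with CHG had the same direction in 97 cases (94.2%, 87.8 to 97.8%). There the CHH difference was the smaller one on the whole. Pairs that were higher had medians of 14% and 42% in CHG but 2% and 13% in CHH, and pairs that were lower had 46% and 15% in CHG but 20% and 3% in CHH.

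**Figure D5:**
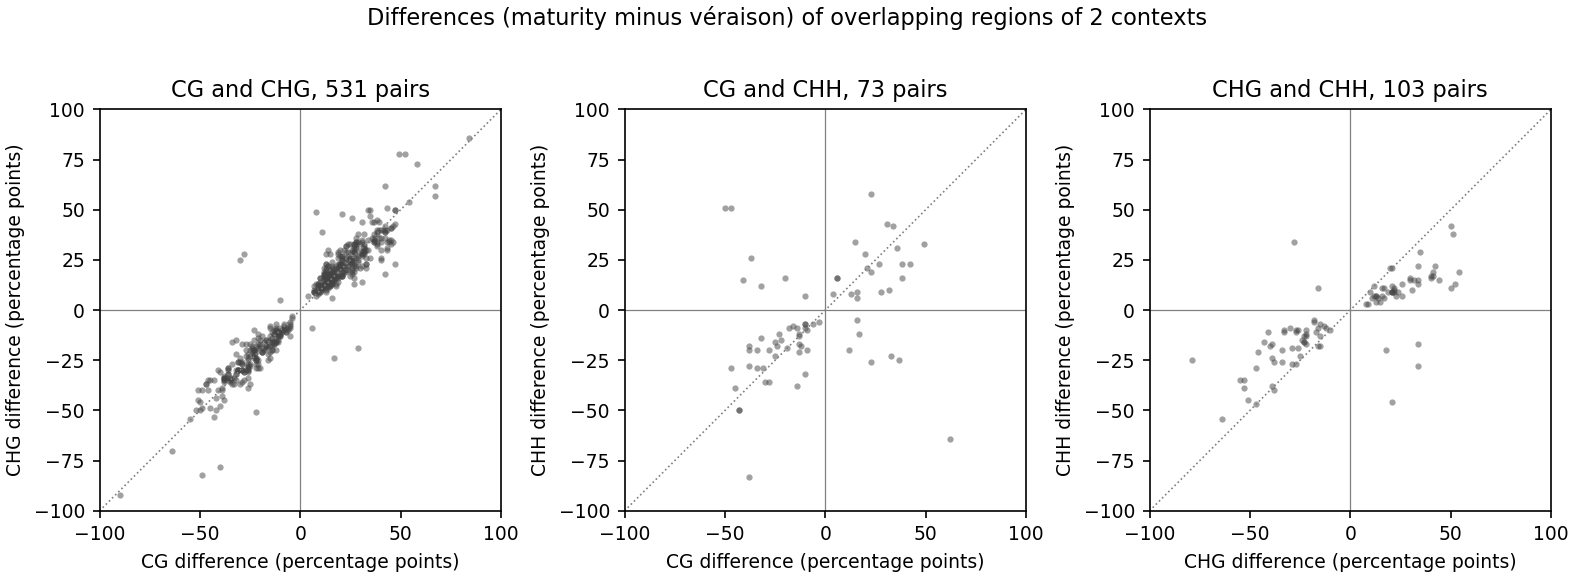
Difference (maturity minus véraison, percentage points) in one context against that in another for each pair of overlapping regions, with a dotted line at equal differences. CG and CHG pairs (531) lie along the line, CHG and CHH pairs (103) lie mostly in the same quadrants but nearer to 0 in CHH, and CG and CHH pairs (73) scatter.

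Gene models were also compared without asking for overlap, taking those whose regions all went one way in each of the contexts compared. CG and CHG had a common direction in 152 of 183 models (83.1%, interval 76.8 to 88.2%), where the models' own shares of higher and lower alone give 50.1%. This came from models whose CG and CHG regions overlap, 118 of 120 of which had a common direction. Of the 63 models whose CG and CHG regions lay apart, 34 did (54.0%, 40.9 to 66.6%), where the shares alone give 49.9%. CHG and CHH had a common direction in 131 of 258 models (50.8%, 44.5 to 57.0%, shares alone 53.1%), and CG and CHH in 46 of 91 (50.5%, 39.9 to 61.2%, shares alone 50.7%). Among models with overlapping CHG and CHH regions it was 22 of 24, and among the others 109 of 234 (46.6%, 40.1 to 53.2%). Contexts thus went together where their regions overlapped, and elsewhere in a model the counts were near what the shares alone give.

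At 10 places a CG region overlapped both a CHG and a CHH region, and at 8 of them all contexts had the same direction, 4 lower and 4 higher. On chromosome 17, from 1356893 to 1357354 outside the named models, CG was 30% at véraison and 64% at maturity, CHG 14% and 64%, and CHH 1% and 43%. The CHH region there had the smallest p of all CHH regions, 1.97e-39 in the authors' deposited table. On chromosome 18, in a model from 10435490 to 10445249, CG was 57% and 19%, CHG 38% and 2%, and CHH 83% and 0%. On chromosome 12, in a short model from 6865057 to 6866746, the CG region from 6866162 to 6866363 was 76% and 38%, CHG 46% and 12%, and CHH 24% and 4%. The exceptions were on chromosome 8, from 21311353 to 21311649, where CG (50% and 18%) and CHG (43% and 8%) were lower but CHH (3% and 15%) was higher, and on chromosome 14, from 5635422 to 5635992, with the reverse (CG 8% and 20%, CHG 7% and 25%, CHH 32% and 12%).

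In 36 gene models all contexts had at least 1 region, and in 23 of them CG and CHG each went one way, the same in both. All regions were lower in 11 of the 36 models and higher in 1, and 24 were mixed. Of all regions in models, 32.5% in CHH, 45.1% in CHG and 54.4% in CG were higher at maturity. The CHH shares alone thus favour models that are lower throughout. The counts that the shares alone give were not worked out, so no joint loss is read from them. In VIT_03s0038g03160.t01, a 5476 bp model on the plus strand of chromosome 3 from 2281216 to 2286691, 8 regions were lower. Its overlapping CG regions near the model's start were at 37% at véraison and 18% at maturity. Its CHG regions were at 30% and 9% near the start and at 42% and 20% near the end, and CHH was lowest at maturity from 2283098 to 2283168, with 49% and 6%. In VIT_13s0047g01060.t01, a 1560 bp model on the minus strand of chromosome 13 from 18009109 to 18010668, CG was at 40% and 19% in one and 38% and 18% in an overlapping region, CHG at 32% and 13% and at 30% and 13%, and CHH at 51% and 22% and at 34% and 0%. The model that was higher throughout was VIT_16s0100g01100.t01, of 1787 bp on the minus strand of chromosome 16 from 16555715 to 16557501. Its CHG region was at 36% and 75%, and its CHH regions at 1 to 3% and 21 to 25%. Its CG region, at 9% and 39%, ended on the model's first coordinate, 16555715, and so lay almost wholly beyond the 3′ end of that model.

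Regions were also ranked by the deposited p, leaving out those shorter than their context's median. The first CG gain, with p = 8.22e-25 in the authors' deposited table, lay in a model on chromosome 12 from 3952933 to 3953424, with 10% at véraison and 36% at maturity. The next gain lay on chromosome 7, from 3859573 to 3859987 in a model, with 14% and 34%. Among CG losses, a model on chromosome 8 from 3917600 to 3921496 also stood out in CHG. Its CHG region from 3919458 to 3919805 was at 85% at véraison and 15% at maturity, beside 87% and 23% in CG. Another CG loss lay more than 3 kb from any listed model on chromosome 15, from 7184446 to 7184735, with 67% and 33%.

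CHG and CHH regions of small p included both near-complete and partial changes. CHG was 7% at véraison and 44% at maturity on chromosome 6 from 20309746 to 20310075, and 1% and 21% on chromosome 4 from 4179643 to 4180266, both in models. It was 58% and 9% on chromosome 13 from 16241207 to 16241745, outside models. CHH was 68% and 10% on chromosome 10 from 8895757 to 8895954, 1 to 3 kb upstream of a listed model, with p = 1.96e-35 in the authors' deposited table. It was 60% and 1% on chromosome 8 from 9124942 to 9125096, and 16% and 80% on chromosome 1 from 5335428 to 5335522 in a model.

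The regions with the largest differences had p between 4.26e-11 and 0.000777 in the authors' deposited table, all larger than those of the regions ranked by p. Among CG regions of at least 200 bp, one on chromosome 18 from 9939575 to 9939891, upstream of a listed model, was listed at 100% at véraison and 0% at maturity and had the largest of these p. A CHG region on chromosome 15 from 10573728 to 10573961 was listed at 0% and 100%. The CHG loss on chromosome 8 named above had p = 3.18e-32 in the authors' deposited table for a smaller difference. Among CHH regions of at least 100 bp, the largest were 12% and 96% on chromosome 8 from 21907033 to 21907188, and 89% and 0% on chromosome 19 from 7510876 to 7510981, both more than 3 kb from any listed model.

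Levels at first growth can be set beside these regions where the tables against first growth hold an overlapping region. Those tables share the véraison or the maturity library with this comparison and list only places that differed from first growth, so the sets below are selected and their sizes are no result. In regions with the same start and end in 2 tables the shared library always had the same level, which checks the columns. Of the CHH regions lower at maturity, 12391 overlapped a region of véraison against first growth. Their median CHH level was 8% (quartiles 4 and 14%) in first growth, 32% at véraison and 11% at maturity. Of the CHH regions higher at maturity, 4978 overlapped a region of maturity against first growth, with medians of 7% (3 and 13%), 10% and 31% in the order of the stages. That one library stood apart from first growth follows from the table used. In both sets the median of the other library was close to that of first growth, which does not mean like levels within each region. Some regions of each set also overlap a place listed as differing between that other library and first growth, and these are given next. Where both tables held an overlapping region, the medians were 9%, 42% and 17% for 3026 lower regions and 8%, 18% and 45% for 1119 higher ones. Such places were listed as differing in every pair of stages, so a spread over all stages follows from the selection.

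CG and CHG started from higher levels at first growth. CG regions higher at maturity had medians of 34%, 15% and 33% in stage order where the véraison table overlapped them (445), and of 16%, 14% and 31% where the maturity table did (304), with 83 in both sets. CG regions lower at maturity had 16%, 23% and 11% where the véraison table overlapped them (215), and 37%, 34% and 14% where the maturity table did (503), with 80 in both. In those 80 the medians were 32.5%, 23% and 9.5%, and in the 83 they were 26%, 11% and 27%. The 83 overlap places listed as differing between maturity and first growth. Their like medians at these stages therefore do not mean like levels within each region. The order of first growth relative to the other stages differed between these sets of CG regions, each of which was selected by the comparison that it overlaps. In CHG, 902 higher regions overlapping the véraison table had 34%, 14% and 34%, and 713 overlapping the maturity table had 15%, 14% and 34%. Lower CHG regions had 15%, 33% and 13% where the véraison table overlapped them (553), and 40%, 39% and 17% where the maturity table did (1075). The place of first growth thus differed between the CHG sets too, with the comparison that selected them. For the CHG regions that overlapped neither table, 58.4% of higher and 58.0% of lower ones, the first growth level is not known.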

How the data were processed

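Whole-genome bisulfite sequencing gave 1 library for each of 3 stages. BSMAP 2.73, a bisulfite read aligner, is named per the submitters' processing notes. The sources used here name no region caller, coverage minimum, genome build or annotation. There are 9 tables in all. Of these, 3 set maturity against véraison. Per the file headers, levels are averages per region and library, deposited as fractions with 2 decimals and shown here as percent. The deposited values are headed as p-values, none exceeds 0.01, and they were taken as p-values of unstated adjustment. Depth is unknown.

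Differences, shares and medians were computed with Python 3.11.15, pandas 2.3.3 and scipy 1.17.1, and the overlap and interval code was tested on simulated data. Lengths count both end bases. Regions overlapped when they shared at least 1 bp. Upstream and downstream follow the strand of the nearest model listed in any of the 9 tables. No test between stages was possible, and no coordinates were converted. Coordinates are those of the deposited tables, whose counting from 0 or 1 is not stated. Regions named were, per context and direction, the 3 with the smallest p, leaving out lengths under the context's median, and the 2 with the largest difference among those of at least 200 bp (CHH 100 bp). A selection of these is printed. Models named were those with the most regions and, by identifier, up to 2 higher and 2 lower in every context. The opposed CG and CHG pair, the places shared by all contexts and the order of topics were chosen after values were seen. The regions, lists and topics were chosen with earlier results of these data known.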

Additional observations from a re-analysis of the deposited data

How the results depend on the processing

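No paired analysis was possible because each stage has 1 library. Across 36 results and 126 values under the alternatives, 94 stayed within the reported interval (or, for log2 ratios, kept their sign), 32 moved beyond it and 0 changed direction. Most values could not change direction. Median differences and log2 ratios were taken after the split into higher and lower regions, which fixes their sign. Shares in gene models, shares of near neighbours and first growth levels have no direction to change. Only shares higher or with a common direction whose interval leaves out an even split could have changed. Keeping only regions at or above their table's median size of difference, the median differences were 27 and -30 percentage points (CG higher and lower), 32 and -33 (CHG) and 31 and -30 (CHH), larger by construction. There the shares in gene models were 26.1% and 25.1% (CG), 30.6% and 43.3% (CHG) and 8.74% and 9.43% (CHH), the share of CHG regions higher at maturity was 47.7%, and the shares of gene models with a common direction were 92.5% (CG and CHG, 53 models), 63.3% (CG and CHH, 30) and 43.5% (CHG and CHH, 69). Among regions of at least the median length, 47.8% of CHG and 28.1% of CHH regions were higher at maturity, the median differences were 17 and -17 (CG higher and lower), -22 (CHG lower) and 24 and -23 (CHH higher and lower), and the shares in gene models were 46.3% and 56.3% (CHG) and 9.33% and 9.56% (CHH). With p at or under 0.001, the CG lower median difference was -21, 53.5% of lower CHG regions were in gene models and 30.5% of CHH regions were higher. Joining neighbours within 1 kb gave 33.2% of CHH higher, and an overlap of 0.5 of the shorter region gave 99.8% of CG and CHG pairs the same direction. For these shifts the cause was not tested, except where named by construction. Organelle sequences and the alternatives chosen after seeing the data (any shared base with a model, 1 region kept per overlapping group) moved no value beyond its interval. Log2 ratios with a pseudocount of 0.01 kept their sign by construction.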

Other observations

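Inside gene models, CG regions lay most often near the start. Of CG regions wholly inside a model, 29.1% were in the first of 5 equal parts counted from the model's start. The last part held 20.5%, about an even share, and each part between held 15.6 to 17.5%. Higher at maturity were 48.7% of 238 regions in the first part (exact interval 42.2 to 55.3%) and 58.9% of 168 in the last (51.1 to 66.4%), with 53.5%, 55.2% and 57.8% between them, beside 53.1% of all listed CG regions. CHG regions were spread more evenly, with 16.2 to 22.5% in each part, as were CHH regions with 15.7 to 23.0%.

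The densest 1 Mb windows differed between contexts. CG regions were most numerous on chromosome 15 from 17000001 to 18000000, with 23 regions of which 10 were higher, where the median window held 5. CHG regions were densest on chromosome 18 from 27000001 to 28000000, with 50 regions of which 24 were higher. CHH regions were densest on chromosome 1 from 8000001 to 9000000, with 109 of which 33 were higher. Over 419 whole windows the counts of contexts were weakly related, with Spearman correlations of 0.16 for CG and CHG, 0.26 for CG and CHH and 0.10 for CHG and CHH, given as descriptions.

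The 4 organelle entries left out were 1 in the chloroplast and 3 in the mitochondrion. The mitochondrial ones were at 2% at véraison and 1% at maturity. The chloroplast entry, a CG region of 480 bp, was listed at 82% at véraison and 0% at maturity.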
